A study of Mus musculus with 2 samples.

Results

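The RNA of the NF-kB transcription factors and of the inhibitors that they induce was examined in regulatory T cells (Tregs) isolated from injured mouse kidney. The 10 genes were chosen by name. They comprised the 5 subunits (Nfkb1, Nfkb2, Rela, Relb and Rel) and 5 genes of the IkB family and its partners that restrain or tune them (Nfkbia, Tnfaip3, Nfkbiz, Nfkbid and Bcl3). A probe was assigned to a gene when the RefSeq accession in its systematic name belonged to that gene. In this way 15 of 56605 probes were found for the 10 genes, out of 22911 genes that could be named on the array.

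The cells were taken on day 28 after cGN induction, a renal injury brought about here by anti-GBM antibody, which binds the glomerular basement membrane. They were CD45+ CD3e+ CD4+ T cells that carried FoxP3-hCD2, a reporter that places human CD2 on cells that express Foxp3. Both samples shared this treatment, tissue, cell gate and time, and they differed in the lot of the antibody, I or M. The labels tie the severity of disease to the lot and number the samples rep1 and rep2. Strain, age, sex and the number of mice behind each RNA are not given in the sources used here, and no uninjured kidney was among the samples. Total RNA of each sample was labelled with Cy3 and hybridised to a 1-colour Agilent array.

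There was 1 array per lot. The comparison of the lots therefore has no replicate check and no p-value, and each value describes these 2 arrays. The deposited value table also contradicts the scanner output on which array is which lot. Array 1 is a lot I sample by its scanner file, yet its values filled the lot M column of the table, with an SD of 0.000574 for the log2 of signal over table value across 13919 probes, against 0.156 for the column labelled lot I. The arrays are therefore called by number, and which lot a higher value belongs to is not settled.

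NF-kB is a family of dimeric transcription factors that rest in the cytoplasm, held there by IkB proteins. Signals from the T cell receptor, from receptors of the TNF family or from the receptors for interleukins 1, 18 and 33 activate the IKK kinases, which mark IkB for destruction and let the dimers enter the nucleus. Among the genes that NF-kB then switches on are those of its own inhibitors, which closes a feedback loop. In Tregs, c-Rel supports the induction of Foxp3, and RelA is needed for the effector state. The array measures RNA and shows neither the processing of the proteins nor their place in the cell.

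The sequence just before the start of several of these genes carries the binding motif of the family itself, and it is shown here because the loop from subunit to inhibitor runs through such sites. Of the 10 genes, 7 had an entry in the RefSeq promoter table (build GRCm38.p6), with 12 start sites in all. Nfkb1, Relb and Nfkbiz had none. The 250 bases before each start were searched on both strands for exact matches to the kB consensus, a motif of 10 bases known by that name. At least 1 match stood before 7 of the 12 starts, in 5 of the 7 genes. Over all 32851 windows of the same length, 7.25% held a match, and 12.09% did among windows with a GC content of 60% or more. Of the 7 windows of the members with that GC content, 5 held a match. The 3 stretches that follow lie before the first annotated start of the gene that codes for IkB alpha (Nfkbia), for A20 (Tnfaip3) and for c-Rel (Rel). They read 5′ to 3′ on the strand of the gene, and capitals mark matches.
Nfkbia, chr12:55492648-55492897, minus strand: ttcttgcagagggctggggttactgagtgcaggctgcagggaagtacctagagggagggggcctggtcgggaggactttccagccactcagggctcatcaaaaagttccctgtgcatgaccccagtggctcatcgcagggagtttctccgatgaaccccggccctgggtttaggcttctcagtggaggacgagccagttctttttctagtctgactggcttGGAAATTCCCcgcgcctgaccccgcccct
Tnfaip3, chr10:19015411-19015660, minus strand: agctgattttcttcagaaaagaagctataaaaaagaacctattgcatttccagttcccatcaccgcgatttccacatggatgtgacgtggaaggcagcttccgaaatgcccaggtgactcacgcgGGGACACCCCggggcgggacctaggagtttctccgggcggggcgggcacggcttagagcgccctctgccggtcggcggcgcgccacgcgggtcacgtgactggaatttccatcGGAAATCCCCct
Rel, chr11:23770970-23771219, minus strand: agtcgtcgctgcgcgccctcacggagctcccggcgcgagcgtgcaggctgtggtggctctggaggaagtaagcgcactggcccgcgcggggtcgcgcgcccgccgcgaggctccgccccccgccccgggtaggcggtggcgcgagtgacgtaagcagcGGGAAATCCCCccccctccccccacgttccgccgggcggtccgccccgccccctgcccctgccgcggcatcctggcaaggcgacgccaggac

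The match before Nfkbia lay 29 to 20 bases ahead of the start, and the nearer of the 2 before Tnfaip3 lay 12 to 3 bases ahead. Before Rel, matches on opposite strands overlapped and gave a run of 11 capitals. Nfkb2 and Nfkbid have several annotated starts, so that a window before one start may lie inside a longer transcript. Their matches are shown as 30 bases each, again with the match in capitals.
Nfkb2, chr19:46304689-46304718, plus strand: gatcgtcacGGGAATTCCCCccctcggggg
Nfkb2, chr19:46304707-46304736, plus strand: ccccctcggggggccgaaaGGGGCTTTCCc
Nfkb2, chr19:46305449-46305478, plus strand: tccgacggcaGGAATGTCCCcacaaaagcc
Nfkb2, chr19:46305695-46305724, plus strand: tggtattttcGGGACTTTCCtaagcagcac
Nfkbid, chr7:30422170-30422199, plus strand: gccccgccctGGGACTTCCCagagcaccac
Nfkbid, chr7:30422215-30422244, plus strand: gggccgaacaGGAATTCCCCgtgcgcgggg
The first Nfkb2 run again joined overlapping matches on the 2 strands. No exact match stood in the single windows of Bcl3 and Rela, in 2 of 3 windows of Nfkbid or in 1 of 2 of Tnfaip3. A match is a description of the letters and not a measured binding site.

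All 10 genes were detected. Each of the 15 probes was well above background on both arrays by the scanner software's flag, whereas 13743 of the 22911 named genes (59.98%) were measured on both. The raw signal of the members' probes was 6.22 to 1668 times the local background. Levels are given as log2 of the processed signal over the 75th percentile of the array, so that 0 marks that percentile, and the lowest detected signals lay at -4.62 on array 1 and -4.58 on array 2. In 13 of the 15 probes the level was above 0 on both arrays. Levels of different genes come from different probes and are not compared with each other.

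**Figure D1:**
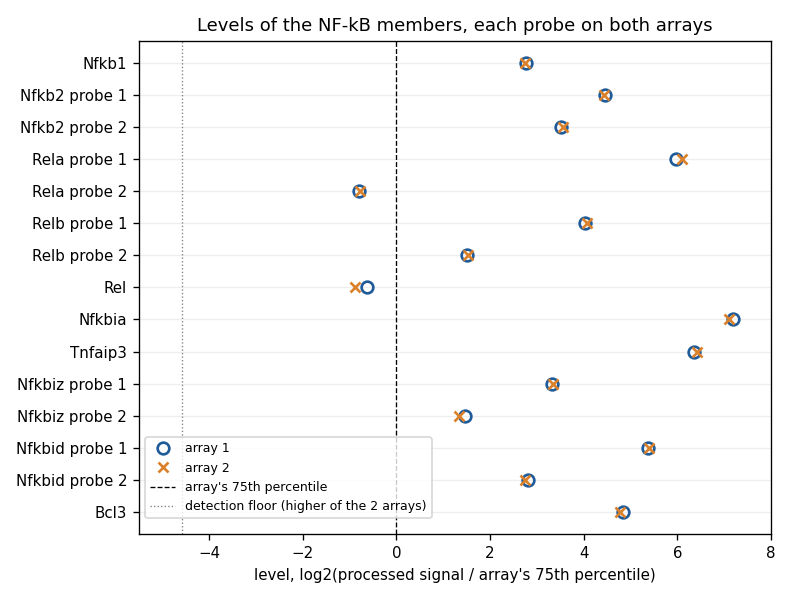
Level of each of the 15 probes for the 10 members on array 1 (circles) and array 2 (crosses), as log2 of processed signal over the array's 75th percentile. The symbols of nearly every probe overlap, Rel shows the widest gap, and the single Rel probe and the second Rela probe lie below 0.

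The members were nearly level between the arrays. The differences, array 2 minus array 1 on the log2 scale, ran from -0.26 for Rel to 0.07 for Rela, and 9 of the 10 were smaller than 0.1 in size. The count of members 2-fold or more apart was 0, where 1.43% of all named genes were. It was also 0 at 1.5-fold, against 5.97% of all genes, and 0 at 1.2-fold, against 19.4%. These shares take in dim genes, which spread more. Under a level of -1, percentiles 5 and 95 of the differences were -0.45 and 0.85. At levels of 2 or more, where 9 of the 10 members lay, they were -0.16 and 0.20. The median difference was -0.03, with 4 genes higher in array 2 and 6 lower, beside a median of 0.01 over all named genes, of which 53.77% were higher in array 2. With scaling by the spike-in controls 1 of the 10 was higher and 9 lower, so the sign of such small differences rests on the scaling.

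The error printed after each ± is the scanner software's own estimate for the spots and holds no variation between mice, sorts or lots. Only Rel differed by more than this error, 1 of 10 members, where 28.6% of all named genes did. A further gauge comes from the probes that are printed in 10 spots. At levels of 2 or more, the repeat spots imply an SD of 0.0545 for the difference between 2 single spots. This is below the spot error of 0.204 of the single-probe members at such levels. Of these members, Nfkbia (-0.0692) and Bcl3 (-0.0548) differed by more than that SD, and Nfkb1 (-0.0283) and Tnfaip3 (0.0541) by less. Of the 9 members with a mean level of 2 or more, 2 had a difference larger than 0.06, the median size over the 4003 genes at such levels.

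**Figure D2:**
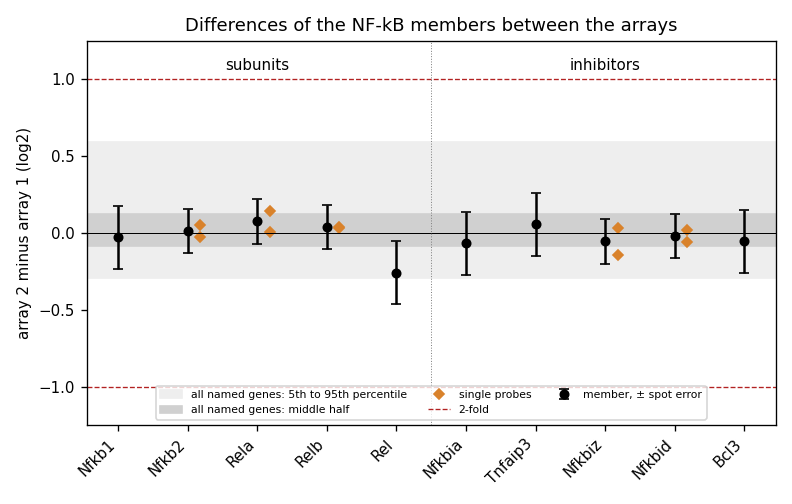
Difference of each member between the arrays (array 2 minus array 1, log2), with bars for the spot error and diamonds for the single probes of the 5 genes that have 2. The darker grey band runs from the lower to the upper quartile of all 13743 named genes (-0.09 to 0.12) and the lighter band from percentile 5 to percentile 95 (-0.30 to 0.59). Apart from Rel at -0.26, the gene values lie inside the darker band. Among the diamonds, the first Rela probe (0.14) and the second Nfkbiz probe (-0.14) lie outside it. Both bands cover genes of all levels, dim ones included. Over the 4003 genes at levels of 2 or more the quartiles are -0.0498 and 0.0741. Nfkbia, Nfkbiz, Bcl3 and, narrowly, Rela lie outside these, and Nfkb1, Nfkb2, Relb, Nfkbid and Tnfaip3 inside. Dashed lines mark 2-fold.

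Nfkb1 and Nfkb2 code for the precursors of the DNA-binding subunits that lack an activation domain of their own. Nfkb1, whose precursor p105 is cut to p50, had levels of 2.77 and 2.74 on arrays 1 and 2 (-0.03 ± 0.20). Nfkb2, the precursor p100 of the non-canonical branch, had a mean over its 2 probes of 3.986 on array 1 and 3.998 on array 2 (0.01 ± 0.14). Its probes differed by -0.03 and 0.05, on opposite sides of 0. Among all named genes, 84.65% differed by at least as much as Nfkb1 and 93.46% by at least as much as Nfkb2.

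RelA, RelB and c-Rel carry the activation domains. Rela, the partner of p50 in the main canonical dimer, had levels of 5.97 and 6.11 by its first probe on arrays 1 and 2. Its second probe, of the same accession, gave -0.79 on array 1 and -0.78 on array 2. The mean difference of Rela was 0.07 ± 0.15. The first probe gave 0.14 and the second 0.008, both above 0 and within the spot error. The 0.14 was still larger than the SD of 0.05 that repeat spots imply at levels of 2 or more.

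Relb, the partner of p52 downstream of the lymphotoxin beta receptor and other receptors of the TNF family, agreed most closely between its probes. The first probe stood at 4.03 on array 1 and 4.07 on array 2, and the second, which is named for another RefSeq transcript of the gene, at 1.504 and 1.538. The differences were 0.04 and 0.03, with a mean of 0.04 ± 0.14.

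Rel had the largest difference of the 10. Its single probe was dim, with a processed signal of 186 on array 1 and 152 on array 2, and raw signals of 7.31 and 6.22 times the local background. The level was -0.62 on array 1 and -0.88 on array 2, a difference of -0.26 ± 0.21 and a ratio of 0.835. Among the 1687 named genes whose mean level lay within 0.5 of it, 22.58% differed by at least as much. The difference was 2.15 times the SD that repeat spots at levels of -1 to 2 imply for single spots. That SD rests on 10 probes on array 1 and 11 on array 2, and Rel lies near the lower end of that range. Just below it, at levels under -1, the repeat spots imply an SD of 0.2547, about the size of the Rel difference. Rel alone passed 1.2-fold when the arrays were scaled by the median of the named genes or by spike-ins, quantile normalised or left unscaled, with -0.32 as the lowest value. No second probe of Rel was there to set against it.

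Nfkbia and Tnfaip3 act on the pathway in the cytoplasm. Nfkbia codes for IkB alpha, the inhibitor that is destroyed first and made anew by NF-kB itself, and it had the brightest probe of the set, with a processed signal of 41363 on array 1 and 38589 on array 2. Its level was 7.18 on array 1 and 7.11 on array 2, a difference of -0.07 ± 0.20. Tnfaip3 codes for A20, an enzyme that edits ubiquitin chains on signalling proteins upstream of IKK, and its level was 6.36 on array 1 and 6.41 on array 2 (0.05 ± 0.20). Both promoters shown earlier hold a kB match within 30 bases of the start, and the 2 genes differed in opposite directions by less than the spot error.

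Nfkbiz, Nfkbid and Bcl3 code for atypical IkB proteins that work in the nucleus, where they bind subunits and can repress or assist transcription. All 3 were slightly lower in array 2. Nfkbiz, which codes for IkB zeta, had mean levels of 2.399 and 2.343 on arrays 1 and 2 (-0.06 ± 0.14). Its 2 probes disagreed, at 0.03 and -0.14, the widest gap among the members with 2 probes. Nfkbid, which codes for IkBNS, a factor that helps to induce Foxp3, stood at 4.09 and 4.06 (-0.02 ± 0.14). Its probes differed by 0.02 and -0.06. Bcl3, which binds homodimers of p50 and p52, stood at 4.84 on array 1 and 4.79 on array 2 (-0.05 ± 0.20).

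Over the inhibitors as a group, 1 was higher in array 2 and 4 were lower, with a median of -0.05, and over the subunits 3 were higher and 2 lower, with a median of 0.01. In 3 of the 5 genes with 2 probes the probes lay on opposite sides of 0, as they did in 1997 of the 5125 named genes with several measured probes. When the probe with the highest level stood for each gene, Nfkbiz was at 0.03, Nfkbid at 0.02 and Nfkb2 at -0.03, each with its sign turned. Rela then stood at 0.14, past 0.1, against 0.07 as the mean of its 2 probes.

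The genes around the members were taken from 8 lists of the pathway with 109 genes, of which 102 were measured on both arrays. None of the 102 was 2-fold apart, against 1.43% of all named genes. At 1.5-fold 5 (4.9%) were apart, against 5.97%, and at 1.2-fold 15 (14.7%), against 19.4%. The median difference of the 102 was -0.03. The lists follow the signal from ligand to target.

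**Figure D3:**
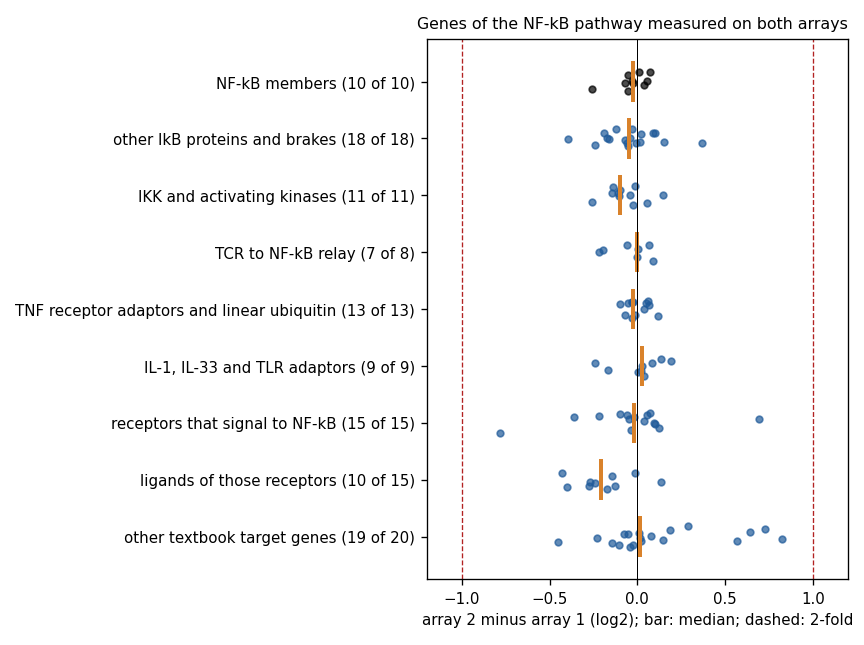
Differences (array 2 minus array 1, log2) of the members and of 8 lists of pathway genes, 1 point per gene measured on both arrays, with the number measured of the number listed. The bar is the list's median, and dashed lines mark 2-fold. The ligands lie to the left of 0 in 9 of 10 genes, and receptors and targets hold the points farthest from 0.

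Ligands were the list with the lowest median. Of 15 ligand genes, 10 were measured on both arrays, and 9 of these were lower in array 2, with a median of -0.21. At 1.2-fold, 4 of 10 were lower and 0 higher, where 6.31% of all named genes were lower in array 2 by that much. Lta, which codes for lymphotoxin alpha, stood at 2.004 on array 1 and 1.572 on array 2 (-0.43 ± 0.20). Tnfsf11, which codes for RANKL, had 1.45 and 1.05 (-0.40 ± 0.14), and both of its probes were lower. At the other end, Il18 differed by 0.13 ± 0.21 and Tnfsf9, the ligand of 4-1BB, by -0.01 ± 0.20. Cd40lg, the CD40 ligand of activated T cells, was well above background on array 1 only, at a dim level of -3.84. Against the detection floor of array 2, and without spot error, it was at least 1.67-fold higher on array 1. Il33, the alarmin that binds the receptor ST2 failed the background flag on both arrays, as did Il1a, Tnfsf4 and Tnfsf18. In RNA of a bulk sample, fewer cells that express a gene and less RNA per cell cannot be told apart.

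All 15 receptor genes were measured on both arrays, and their median was -0.02. At 1.2-fold 3 of the 15 (20%) were apart, 1 higher in array 2 and 2 lower, close to the 19.4% of all named genes. The genes farthest from 0 were dim. Cd40, a receptor of antigen-presenting cells, passed 1.5-fold with -2.20 on array 1 and -2.99 on array 2 (-0.79 ± 0.24). Ltbr, the lymphotoxin beta receptor, which T cells are known to lack, had -2.15 on array 1 and -1.45 on array 2 (0.69 ± 0.22). Tlr4 (-0.36 ± 0.33) and Tlr2 (0.12 ± 0.20) were the next in each direction. Of 5 B cell markers, 4 were measured, with a median of -0.32 and 3 of them lower in array 2. Macrophage and monocyte markers had a median of 0.33, 9 of 10 higher, and dendritic cell markers 0.07, 3 of 4 higher. The part of such cells in the Cd40 value was not tested.

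The relays between receptor and IKK differed little. The 13 adaptors of TNF receptors and of linear ubiquitin had a median of -0.02, from -0.10 for Traf1 to 0.12 for Traf2. None differed by more than its spot error, against 28.6% of all named genes. Birc2 (-0.07 ± 0.20) and Traf6 (0.07 ± 0.15) came next. The relay from the T cell receptor had a median of -0.004 over 7 of its 8 genes, as Carmil2 had no named probe. There the protein kinase C gene Prkcq (0.09 ± 0.20) and the costimulatory receptor gene Cd28 (0.06 ± 0.20) were the highest. The protease genes Casp8 (-0.22 ± 0.20) and Malt1 (-0.19 ± 0.15) were the lowest, and the 2 Malt1 probes gave -0.35 and -0.04. The 9 adaptors of the interleukin 1 and toll-like receptors had a median of 0.03, from -0.24 ± 0.13 for Irak3 and -0.16 ± 0.21 for Tirap to 0.13 ± 0.20 for Ticam1 and 0.19 ± 0.21 for Irak4.

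Of the 11 kinases at the IKK step, 9 were lower in array 2, with a median of -0.10. None was 1.2-fold apart, against 19.4% of all named genes. Chuk, which codes for IKK alpha, stood at 1.14 on array 1 and 0.88 on array 2. Its difference of -0.26 ± 0.15 came from 2 probes at -0.29 and -0.24. Map3k7, which codes for the kinase TAK1, differed by -0.14 ± 0.12 over 3 probes, all lower. Higher in array 2 were Ikbkg, which codes for the scaffold NEMO (0.14 ± 0.12), and Map3k14, the kinase NIK of the non-canonical branch (0.05 ± 0.15).

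The brakes outside the 10 members had a median of -0.05, with 6 of 18 genes higher and 12 lower. At 1.2-fold, 2 of the 18 (11.1%) were apart, against 19.4% of all named genes. Tnip3, a partner of A20, was lower in array 2 at a low level (-0.39 ± 0.21), followed by the deubiquitinase gene Otud7b (-0.24 ± 0.21). N4bp1 was higher (0.37 ± 0.20), followed by Tnip2 (0.15 ± 0.20). A kB match stood before a start of 6 of the 14 brake genes that had an entry in the promoter table, where 8.23% of all genes in the table held one. In the lists before it, the counts were 1 of 11 ligands, 4 of 13 receptors, 0 of 11 adaptors of TNF receptors, 1 of 4 genes of the T cell receptor relay, 1 of 8 adaptors of the interleukin 1 and toll-like receptors and 1 of 8 kinases at the IKK step.

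The 20 other target genes had 19 members measured on both arrays and a median of 0.01. At 1.5-fold, 3 of 19 were higher in array 2, where 5.15% of all named genes were, and none lower. Il6, the interleukin 6 gene, had levels of -1.98 and -1.15 (0.82 ± 0.15), with 0.68 and 0.97 from its 2 probes. Ccl2, a chemokine gene for monocytes, had -1.49 on array 1 and -0.77 on array 2 (0.73 ± 0.21). Cxcl1, a chemokine gene for neutrophils, had -3.61 and -2.96 (0.64 ± 0.28) and was named after its value was seen. All 3 lay below the 75th percentile on both arrays. Lower in array 2 were Ptgs2 (-0.45 ± 0.33), which codes for cyclooxygenase 2 and was also dim, and Cxcl10 (-0.23 ± 0.20). Of the 15 targets with an entry in the promoter table, 10 had a kB match before a start, against the 8.23% of all genes, among them Il6, Cxcl1 and Cxcl10, which differed in both directions.

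The labelled cell type was checked against markers of T cells and of other kidney cells. All 10 markers of T cells and Tregs were measured, with a median of 0.02, and Foxp3 stood at 4.92 on array 1 and 4.74 on array 2, Cd3e at 5.47 and 5.58 and Cd4 at 3.21 and 3.20. Their summed signal was 727 times the 75th percentile on array 1 and 736 times on array 2. Markers of cells outside the gate were detected as well. Array 2 had more signal from all 8 proximal tubule markers (median difference 1.18), with a summed signal of 78.7 on array 1 and 163 on array 2 in the same unit. The medians were 0.58 for 6 distal nephron markers, all higher, and 0.33 for 10 macrophage and monocyte markers, 9 of them higher, with summed signals of 34.9 and 42.7. Endothelial markers had a median of -0.10 over 4 of 5 genes, with Tek not well above background. Fibroblast and mesangial markers had -0.04 over 2 of 5, Col1a1 at 0.34 and Dcn at -0.41, with Lum and Pdgfrb not well above background. Pdgfra was detected on array 1 only, at a dim level of -3.34. Against the detection floor of array 2, and without spot error, it was at least 2.36-fold higher there. The medians of the neutrophil (0.28, over 3 of 5), dendritic cell (0.07, over 4 of 5) and CD8 T and natural killer cell markers (0.21, over 4 of 5) rested on few genes, as Ly6g had no named probe, Mmp8 and Xcr1 were detected on 1 array and Ncr1 on neither. Of the 3 neutrophil markers measured, S100a8 (0.28) and S100a9 (0.39) were higher and 1 was lower (-0.14). Their summed signal was 74.9 on array 1 and 71.1 on array 2, and most of it came from the 1 gene that was lower. Tubular cells, macrophages and stromal cells also express members of the NF-kB family and most of its targets. The part of such RNA in the levels of the members, or in the values of Il6, Ccl2, Cxcl1 and Ltbr, was not tested.

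**Figure D4:**
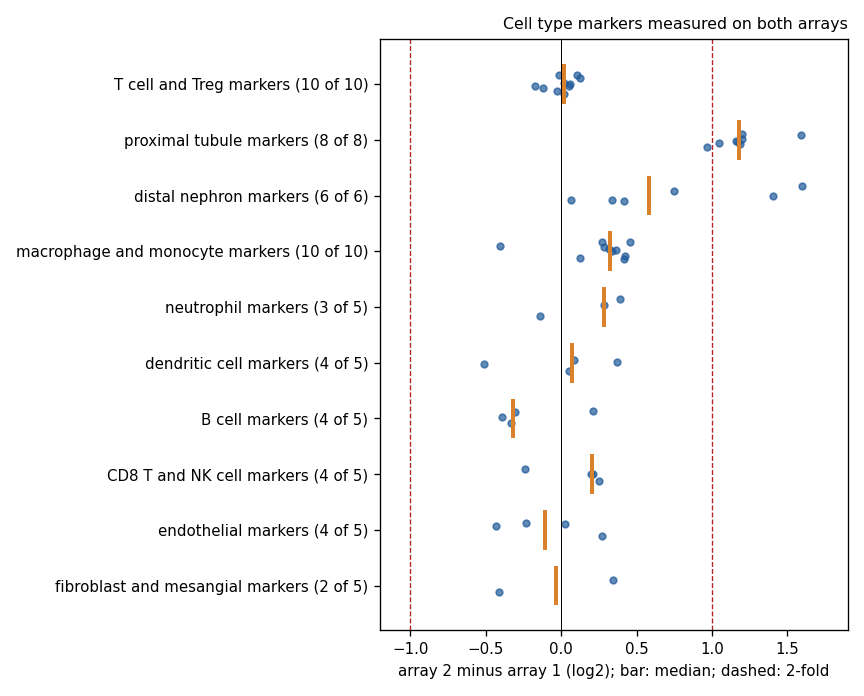
Differences (array 2 minus array 1, log2) of cell type markers measured on both arrays, 1 point per gene, with the median as a bar and the number measured of the number listed. T and Treg markers lie close to 0, and all 8 proximal tubule markers lie near or beyond the dashed 2-fold line on the side of array 2.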

How the data were processed

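Agilent Feature Extraction 10.7.1.1 read the spots, per the submitters' processing notes. The deposited scanner output holds a processed signal intensity per spot, after spatial detrending per the file headers, with its error, raw median intensities and detection flags. The deposited value table holds a linear ratio. How it was made: not given in the sources used here. Against the scanner output it was the processed signal over 1 constant per array (285.0 and 278.6), neither logged nor centred by gene. Its column medians were 0.070 for the column labelled lot I and 0.069 for the column labelled lot M. Its direction between the lots stays unknown.

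Of 62976 spots, 3671 control spots were left out, as were 75 and 56 outlier spots on arrays 1 and 2. No spot was saturated. Log2 signals of the spots of a probe were averaged, and the 75th percentile over probes was subtracted. Probes were named through RefSeq accessions (assembly GRCm38.p6, for names and promoters only, since the array files name another build), which gave 32994 of 56605 probes a symbol. A gene's value averages those of its probes that both arrays flag as well above background. A gene detected on 1 array has a lower bound against the detection floor of the other, and this bound holds no spot error. Counts use limits of 2-fold, 1.5-fold and 1.2-fold. The software was Python 3.11.15 with pandas 2.3.3 and statsmodels 0.14.6, and limma 3.58.1 for normexp. The gene summaries and the motif search were tested on simulated data. No test was run, since a lot is 1 array, and this limits the precision. Effects of array and lot cannot be told apart.

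The members and lists were chosen with earlier results of these data known. The rule named all members, the 2 highest and 2 lowest genes of each pathway list with those measured on 1 array, Foxp3, Cd3e and Cd4, and at most 2 genes of each marker list. Genes named for being undetected or for a kB match were chosen after their values were seen. No gene was named by likeness of pattern, since 2 arrays give no pattern.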

Additional observations from a re-analysis of the deposited data

How the results depend on the processing

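Alternatives were normexp background correction (offset 50, on the median signal because the files hold no mean signal), scaling by the median of named genes or by spike-ins, quantile normalisation, lowess centring, no filter or a stricter filter (4 times the floor) on dim probes, outlier spots kept, the brightest probe and the value table. Leaving the arrays unscaled was chosen after seeing the data. All 10 members were also detected by the scanner's other flag, and the count of members at 2-fold and at 1.5-fold was 0 under every alternative. The members' median ran from -0.08 to -0.006 under all of these but the value table, whose columns, taken by their labels, turn the sign of all 10 members (Rel 0.26, Rela -0.08). Nfkb2 also turned under 6 of the other alternatives (median, spike-in and lowess scaling, quantile normalisation, the brightest probe and no scaling), Relb and Tnfaip3 with spike-ins, and Nfkbid and Nfkbiz with the brightest probe. Of the pathway lists' medians, those of the targets and the interleukin 1 adaptors turned negative with spike-ins and without scaling. The receptors' median turned positive with normexp (0.02), the stricter filter (0.05) and the brightest probe (0.02), and that of the T cell receptor relay with the brightest probe (0.003). With 1 mismatch allowed, all 12 windows of the members held a kB match, as did 56.63% of all windows. Over all named genes, the 196 genes at 2-fold became 28 with normexp, 85 with the stricter filter and 1047 without a filter. At 1.5-fold, 820 became 237, 411 and 2668 in the same order, and at 1.2-fold, 2668 became 1263, 1554 and 5840. Spike-in scaling took the share of named genes higher in array 2 from 53.77% to 37.88%. No paired analysis was possible because each lot has 1 array and no result comes from a test. Signal over background limits Rel and the second Rela probe most.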
